A study of Mus musculus with 90 samples.

Results

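Kruppel-like factors (KLFs) are transcription factors that bind GC-rich and CACCC sequences through zinc fingers. Klf3, Klf6, Klf9, Klf10, Klf11, Klf12, Klf13 and Klf15 were taken by symbol, 8 of 27654 genes in tables of estimated counts from mouse liver RNA-seq. They were chosen with earlier results of these data known, so how many of them changed is a description and not a test of the family. All mice were male C57BL/6J, 12 weeks old when the protocols began. In the time series, WT mice (GRfl/fl) and GRLKO mice (GRfl/fl x Alb-Cre) were either stepped down to 40% fewer calories with food given at ZT12 (CR), or were controls fed only at night before sampling (NRF). Their livers were collected every 4 h at 6 time points, ZT0 to ZT20, where ZT0 is lights on. Each CR group held 3 livers. The NRF groups held 3 WT and 3 GRLKO livers at ZT0 and ZT4, 4 and 4 at ZT8 and ZT12, and 4 and 3 at ZT16 and ZT20. A separate diet experiment compared 3 CR with 3 control WT livers at ZT12. Those controls carry AL in their sample names but night-restricted feeding as their treatment. In the corticosterone (CORT) experiment, 3 WT mice injected with CORT each day were compared with 3 night-fed, vehicle-injected WT mice, again at ZT12. Each of the 90 libraries came from 1 mouse.

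Alb-Cre removes the receptor in hepatocytes, whereas RNA was taken from whole liver, so the other liver cells of GRLKO mice kept it. Total counts per library ran from 14235473 to 20788575 in the CR libraries of the time series, from 10057544 to 17089004 in its NRF libraries, from 36442195 to 39492146 in the diet experiment and from 13739631 to 16077943 in the CORT experiment. CR and NRF libraries of the time series form separate sets with a table each, so diet and library set cannot be told apart there. Levels are given as CPM, a library's counts relative to its total, scaled within each of the 4 tables, and levels from different tables are set side by side only as descriptions. A gene was called where the adjusted p of edgeR's quasi-likelihood test was under 0.05, and each count of these KLF genes called by edgeR with all livers stands beside the percentage of all tested genes that were called. Counts from other tools or refits that stand without such a percentage, also counts of 0, describe the KLF genes only.

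The KLF family has members that activate and members that repress transcription, and several bind the same DNA element in competition with each other and with SP factors. In the liver, KLF15 is known for its part in amino acid breakdown and gluconeogenesis, KLF10 and KLF11 for their response to TGF-beta and nutrients, and KLF6 for its induction in injury. Klf9 is a classical gene induced by glucocorticoids, and several family members are expressed in a daily rhythm.

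Nr3c1, which encodes the glucocorticoid receptor, was measured first. At ZT12 on CR it stood at 102, 98.0 and 104 CPM in the WT livers and at 31.0, 32.2 and 30.9 CPM in the GRLKO livers. WT and GRLKO livers never overlapped in the 12 genotype comparisons, with log2 fold changes from -2.06 to -1.70. Transcript therefore remained in every GRLKO liver. In WT livers the log2 fold change of Nr3c1 was -0.08 with CR (edgeR adjusted p = 0.317) and -0.06 with CORT (adjusted p = 0.808).

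Klf12, a repressor of the family, was at 0 counts in 88 of the 90 libraries. Replicate 2 of GRLKO on CR at ZT16 held 9 counts and replicate 3 of WT on NRF at ZT20 held 12. A count of 0 allows up to 0.299 CPM in the shallowest library and 0.0749 CPM in the deepest, after scaling, by a limit of 3 counts that covers counting error only. Klf12 did not pass the filter on low counts in any comparison between groups, so 7 of the 8 genes were tested there.

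Klf10 was at 0 in 4 of the 90 libraries, while the other livers of the same groups held from 0.797 to 27.8 CPM. The 4 were replicate 2 of WT on NRF at ZT12, replicate 1 of WT on NRF at ZT16, replicate 3 of GRLKO on CR at ZT20 and replicate 2 of the vehicle-injected controls. At ZT12, for instance, the other WT livers on NRF had 15.8, 26.3 and 27.8 CPM. Its fold changes for CORT and between genotypes are given with and without these libraries.

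The diet experiment asks how CR alters liver transcripts at ZT12. Klf3, a repressor that recruits CtBP, stood at 50.8, 57.0 and 70.9 CPM in the control livers and at 150, 127 and 172 CPM in the CR livers. Klf11, a repressor that binds SIN3A, stood at 9.18, 5.67 and 8.93 CPM in controls and at 16.7, 21.5 and 35.7 CPM with CR. Klf15, the regulator of amino acid breakdown, stood at 71.1, 69.8 and 77.0 CPM in controls and at 126, 163 and 196 CPM with CR. Every CR liver was above every control liver for all 3 genes. Here and below, the share of all genes without overlap was not counted, so a lack of overlap describes these livers only. Klf6 lay between 4.91 and 5.52 CPM in controls and between 9.05 and 18.4 CPM with CR. Klf10 lay between 4.91 and 14.3 CPM in controls and between 17.1 and 30.2 CPM with CR. Klf13 and Klf9 also had no overlap, with ranges from 69.2 to 81.4 against 96.2 to 108 CPM for Klf13, and from 132 to 143 against 150 to 195 CPM for Klf9.

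All 7 tested KLF genes rose with CR, where 47.1% of all tested genes were called and 3073 rose. Their median log2 fold change was 1.29, against 0 over all tested genes. Since these genes were chosen with earlier results known, their count and median are descriptions only. Of the other KLF genes, 2 of 6 tested rose, with a median of 0.12. Klf11 rose by 1.63 (SE 0.31, adjusted p = 0.00483), Klf6 by 1.40 (SE 0.24, adjusted p = 0.00346), Klf3 by 1.33 (SE 0.15, adjusted p = 0.000769) and Klf15 by 1.15 (SE 0.15, adjusted p = 0.00132) on the log2 scale. These 4 stayed past the threshold whichever library was left out. Klf13, a SIN3A-binding repressor, rose by 0.47 (SE 0.09, adjusted p = 0.00452) and also kept its call. Klf10, the TGF-beta-inducible repressor, rose by 1.29 (SE 0.38, adjusted p = 0.027), but had adjusted p = 0.0866 without control replicate 2 and 0.0788 without CR replicate 3. Klf9, the smallest change at 0.32 (SE 0.10, adjusted p = 0.0397), was lost without any of control replicates 1, 2 and 3 or CR replicates 2 and 3, with adjusted p from 0.0777 to 0.126. Klf9 was also lost with a replicate block (adjusted p = 0.0639).

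The WT livers of the time series allow the same contrast at ZT12, with diet and library set tied together. There Klf6 (log2 1.73, adjusted p = 0.0039), Klf11 (1.27, adjusted p = 0.00582), Klf3 (0.65, adjusted p = 0.00361) and Klf9 (0.39, adjusted p = 0.0269) were called higher, 4 genes in place of 7, where 38.1% of all tested genes were called. Klf13 stood at 71.4, 70.8 and 72.2 CPM on CR and at 67.5, 76.5, 82.9 and 70.9 CPM on NRF. Klf15 stood at 84.1, 130 and 112 CPM on CR and at 106, 129, 102 and 109 CPM on NRF. The diets overlapped for both genes, and the log2 fold changes were -0.08 for Klf13 (adjusted p = 0.481) and -0.06 for Klf15 (adjusted p = 0.786). Klf10 had a log2 fold change of -0.30 there (adjusted p = 0.817), with 1 of the NRF libraries at 0. The rise of these 3 genes in the diet experiment thus did not recur in the time series at the same hour, and the cause was not tested.

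The CORT experiment asks which transcripts move when the hormone alone is raised in night-fed WT mice. Klf3 stood at 59.4, 48.2 and 43.1 CPM with vehicle and at 124, 137 and 100.3 CPM with CORT. Klf13 stood at 46.1, 31.9 and 26.7 CPM with vehicle and at 71.1, 90.0 and 73.9 CPM with CORT. Klf15 stood at 85.3, 74.8 and 87.6 CPM with vehicle and at 168, 210 and 183 CPM with CORT. CORT livers were above all vehicle livers for each of these genes. Klf9 stood at 60.6, 67.2 and 72.2 CPM with vehicle and at 92.2, 179 and 94.4 CPM with CORT. Here too the groups did not overlap, and replicate 2 was far above the other CORT livers.

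Klf3 (log2 1.26, SE 0.16, adjusted p = 0.00711), Klf15 (2.26-fold, log2 SE 0.12, adjusted p = 0.00288) and Klf13 (1.17, SE 0.20, adjusted p = 0.0187) rose with CORT. That is 3 of 7 tested KLF genes, where 8.11% of all tested genes were called. The median of the 7 was 0.87, against -0.01 over all tested genes. Klf3 and Klf15 kept their calls in all 6 refits without 1 library. Klf13 had adjusted p = 0.0887 without vehicle replicate 2, 0.0511 without vehicle replicate 3 and 0.0515 without CORT replicate 3. Klf9 did not pass the test (log2 0.87, SE 0.26, adjusted p = 0.0884), but was called by DESeq2 (adjusted p = 0.00868) and, at a smaller log2 of 0.47, without CORT replicate 2 (adjusted p = 0.037). Over all its alternatives the adjusted p of Klf9 ran from 0.00868 to 0.224. Klf6 (0.23, adjusted p = 0.608) and Klf11 (0.19, adjusted p = 0.756) did not pass. For Klf10 the log2 fold change was 0.00 with all libraries and -0.59 without the vehicle library at 0 (adjusted p = 0.754). The vehicle livers stood at 14.7, 0 and 1.16 CPM, and over all alternatives the log2 value ran from -0.59 to 3.19, with the same sign in 6 of 10 and a call in 0.

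**Figure D1:**
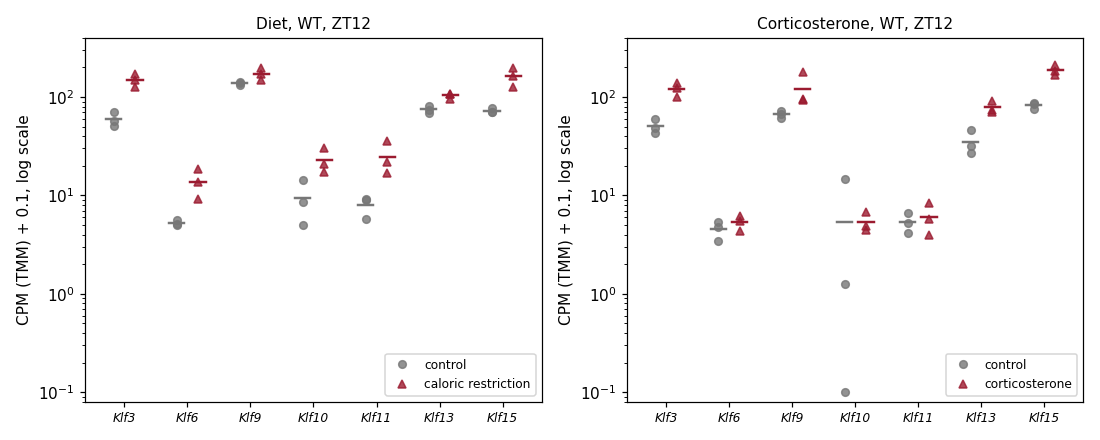
CPM of the KLF genes except Klf12 in each WT liver at ZT12 in the diet experiment and in the CORT experiment; each point is 1 liver. Klf3 and Klf15 are higher in every CR liver and in every CORT liver than in the controls of the same experiment.

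Levels in the control groups differed between experiments for some genes. Mean Klf9 was 137 CPM in the controls of the diet experiment, 120 CPM in WT on NRF at ZT12 and 66.7 CPM with vehicle. Mean Klf13 was 74.6, 74.5 and 34.9 CPM in the same order. The vehicle group was thus the lowest for both genes, across tables that were normalised separately, and no test was made of it.

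The comparisons of GRLKO with WT ask how transcripts differ when hepatocytes lack the receptor. At ZT12 on CR, Klf9 stood at 173, 147 and 160 CPM in WT livers and at 74.2, 59.0 and 69.7 CPM in GRLKO livers. Klf3 stood at 93.7, 125 and 114 CPM in WT livers and at 61.1, 68.0 and 74.0 CPM in GRLKO livers. Klf13 stood at 71.4, 70.8 and 72.2 CPM in WT livers and at 58.9, 48.6 and 52.5 CPM in GRLKO livers. WT livers were above all GRLKO livers for these 3 genes. Klf15 stood at 84.1, 130 and 112 CPM in WT livers, and at 58.1, 89.6 and 65.7 CPM in GRLKO livers. The lowest WT liver was below the highest GRLKO liver.

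Klf9 fell by 1.25 (SE 0.11, adjusted p = 0.000968), Klf3 fell by 0.72 (SE 0.13, adjusted p = 0.0111) and Klf13 fell by 0.43 (SE 0.09, adjusted p = 0.021) on the log2 scale, 3 of 7 tested KLF genes where 15.3% of all tested genes were called. The median of the 7 was -0.49, against 0.00 over all tested genes. Klf9 and Klf3 were called under all 11 alternatives. Klf13 was called under 5 of them, and was lost without any of WT replicates 1, 2 and 3 or GRLKO replicates 2 and 3, with adjusted p from 0.0528 to 0.082, and with a replicate block (adjusted p = 0.071). Klf15 had a log2 fold change of -0.62 (SE 0.20, adjusted p = 0.0834) and was called by DESeq2 (adjusted p = 0.0167) and with a replicate block (0.0303), with adjusted p from 0.0167 to 0.214 over its alternatives. Klf10 had a log2 fold change of -0.49 (adjusted p = 0.322), and -0.95 without GRLKO replicate 3 (adjusted p = 0.0294). That was its only call under 11 alternatives, over which its log2 value ran from -0.95 to -0.23 and its adjusted p reached 0.595. Klf6 and Klf11 did not pass, at 0.25 and -0.44.

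At ZT8 on CR, Klf13 stood at 107, 120 and 124 CPM in WT livers and at 75.7, 71.0 and 81.8 CPM in GRLKO livers. Its fall by 0.62 (SE 0.09, adjusted p = 0.0179) was the only call among the 7 KLF genes, where 2.55% of all tested genes were called. The groups did not overlap, but the call was lost without WT replicate 3 (adjusted p = 0.0615) and without GRLKO replicate 1 (0.0889), replicate 2 (0.0822) or replicate 3 (0.0583). A replicate block also ended the call (adjusted p = 0.0572). DESeq2 called 2 KLF genes there, Klf9 and Klf13, and 5.27% of all genes it tested.

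At the other times on CR, edgeR called 0 of the 7 KLF genes. At ZT0, with 0.502% of all tested genes called, 1 KLF gene and 1606 of all 12140 tested genes had an unadjusted p under 0.05, and DESeq2 called 0 KLF genes. At ZT4, with 0.69% called, 1 KLF gene and 1755 of all 12025 tested genes had such a p, and DESeq2 again called 0 KLF genes. At ZT16, with 4.54% called, 5 KLF genes and 2285 of all 11905 tested genes had an unadjusted p under 0.05, and DESeq2 called 0 KLF genes. The smallest adjusted p at ZT16 was that of Klf3, at 0.101 with a log2 fold change of -0.32. At ZT20, with 1.47% called, 5 KLF genes and 2340 of all 12076 tested genes had an unadjusted p under 0.05. There DESeq2 called 3 KLF genes, which were Klf9, Klf10 and Klf15, and 5.35% of all genes it tested.

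The ZT20 livers on CR show where the tools part. Klf10 stood at 5.08, 4.69 and 4.15 CPM in WT livers and at 0.797, 0.927 and 0 CPM in GRLKO livers. The groups did not overlap, and the edgeR log2 fold change was -2.94 (SE 0.73, adjusted p = 0.104). Without the GRLKO library at 0, it was -2.39 (adjusted p = 0.0245). Klf15 stood at 49.1, 24.5 and 57.6 CPM in WT livers and at 21.2, 19.1 and 22.1 CPM in GRLKO livers. WT replicate 2 lay near the GRLKO livers, and the log2 fold change of -1.04 (adjusted p = 0.125) became -1.33 (adjusted p = 0.0329) without it. Klf10 and Klf15 were each called under only 3 of 11 alternatives. Over these the adjusted p ran from 0.000475 to 0.292 for Klf10 and from 0.0057 to 0.326 for Klf15, whose smallest log2 fall was -0.79.

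On NRF at ZT12, Klf9 stood at 104, 116, 121 and 141 CPM in WT livers and at 85.9, 84.5, 81.2 and 86.1 CPM in GRLKO livers. Klf15 stood at 106, 129, 102 and 109 CPM in WT livers and at 87.6, 74.6, 75.2 and 74.7 CPM in GRLKO livers. Each WT liver was above each GRLKO liver for both genes. Klf9 (log2 -0.52, SE 0.09, adjusted p = 0.0234) and Klf15 (-0.52, SE 0.10, adjusted p = 0.0276) fell, 2 of 7 tested KLF genes where 2.08% of all tested genes were called. Klf9 was lost without WT replicates 2 or 3 or any of GRLKO replicates 1, 2, 3 and 4, with adjusted p from 0.0606 to 0.0692. Klf15 was lost without WT replicates 2 or 4 or GRLKO replicates 2, 3 or 4, with adjusted p from 0.0518 to 0.0821, and in a fit over all libraries of the diet (0.0667), which called Klf3 (0.0362). Klf9 and Klf15 were both lost with a replicate block (0.0851 and 0.108). Without GRLKO replicate 4, Klf3 (log2 -0.50, adjusted p = 0.0443) and Klf13 (-0.54, adjusted p = 0.031) were called. With all livers edgeR gave them adjusted p of 0.0852 and 0.121, and DESeq2 called both (adjusted p = 0.00926 and 0.0253). Klf10 did not pass (2.001-fold lower, adjusted p = 0.763), also without the WT library at 0 (log2 -1.42, adjusted p = 0.461).

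At the other times on NRF, edgeR again called 0 of the 7 KLF genes. At ZT0, where 0.536% of all tested genes were called, 1 KLF gene and 1798 of all 11749 tested genes had an unadjusted p under 0.05. DESeq2 called 1 KLF gene there (3.03% of all genes it tested). That gene was Klf11, at 2.58, 2.30 and 4.62 CPM in WT livers and at 8.84, 4.48 and 14.5 CPM in GRLKO livers, which overlap. At ZT4 (0.195%) and at ZT8 (1.43%), 1 KLF gene had an unadjusted p under 0.05 and DESeq2 called 0 KLF genes. Over all tested genes, 1152 of 11817 at ZT4 and 1301 of 11582 at ZT8 had such a p. At ZT16 (1.98%), 2 KLF genes and 1950 of all 11723 tested genes had an unadjusted p under 0.05, and DESeq2 called 0 KLF genes. The log2 fold change of Klf10 there was 0.39, and -0.04 without the WT library at 0 (adjusted p = 0.97). At ZT20 (0.42%), 1 KLF gene and 1346 of all 11906 tested genes had an unadjusted p under 0.05. DESeq2 called 1 KLF gene there, Klf15 (2.13% of all genes it tested).

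Taken by gene, Klf3 and Klf9 had a negative log2 fold change in all 12 genotype comparisons. Klf13 and Klf15 were negative in 11, Klf11 in 9, and Klf6 and Klf10 in 8. The ranges were -0.72 to -0.02 for Klf3, -1.25 to -0.06 for Klf9, -0.62 to 0.22 for Klf13 and -1.04 to 0.08 for Klf15. The median of the 7 KLF genes was below 0 in 11 of the 12 comparisons. Over all tested genes the median lay between -0.0111 and 0.0056. That of the hepatocyte markers was below 0 in all 12, from -0.76 to -0.16, so a negative sign is not particular to the KLF genes. The share of all genes with such signs was not counted. Each comparison has its own livers, but those of a diet belong to 1 library set.

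**Figure D2:**
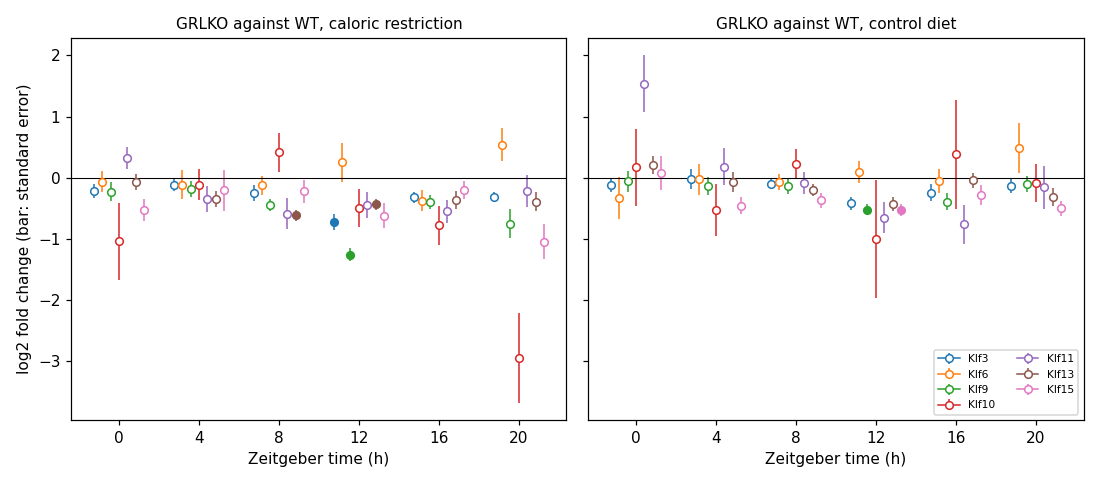
Log2 fold change of GRLKO against WT for each KLF gene except Klf12 at each time point, on CR and on NRF, with its standard error; filled points are called by edgeR. Klf9 is lowest at ZT12 on CR, at -1.25.

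Whether the genotype effect differed between diets was tested as an interaction at each time. At ZT12 it was called for Klf9 (log2 -0.72, SE 0.15, adjusted p = 0.0395), 1 of 7 KLF genes where 1.01% of all tested genes were called. DESeq2 also called 1, and 4.09% of all genes it tested. On simulated data, DESeq2 called more unchanged genes for the interaction than its threshold allows. The Klf9 difference is that of a fall by 1.25 on CR and a fall by 0.52 on NRF, which are separate library sets. The call was lost in 13 of 14 refits without 1 library, with log2 values from -0.79 to -0.63 and adjusted p from 0.0539 to 0.0928; it held only without WT replicate 4 on NRF. It was also lost with a replicate block (adjusted p = 0.0774). The libraries whose removal ended it were thus WT replicates 1, 2 and 3 and GRLKO replicates 1, 2 and 3 on CR, and WT replicates 1, 2 and 3 and GRLKO replicates 1, 2, 3 and 4 on NRF.

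At the other times edgeR called 0 KLF genes in the interaction. The percentage of all tested genes called was 0% at ZT0, where 1 KLF gene had an unadjusted p under 0.05, and 0% at ZT4, where 0 had. It was 0.081% at ZT8, with 1 KLF gene under 0.05, and 0.234% at ZT16, with 0. It was 0% at ZT20, where 2 KLF genes had an unadjusted p under 0.05. Over all tested genes, 1266 of 12455 at ZT0, 746 of 12362 at ZT4 and 1043 of 12345 at ZT8 had such a p. So had 1306 of 12385 at ZT16 and 878 of 12599 at ZT20. DESeq2 called 0 KLF genes at ZT0, ZT4, ZT8 and ZT16, and 1 at ZT20 (0.335% of all genes it tested), Klf10, whose edgeR log2 interaction was -2.87 (adjusted p = 0.55), and -2.32 without the GRLKO library at 0 (adjusted p = 0.331). For Klf10 at ZT12 and ZT16, it was 0.53 and -1.17, and 0.95 and -0.75 without the WT libraries at 0.

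Daily profiles were read from the 18 WT and 18 GRLKO livers on CR and the 22 WT and 20 GRLKO livers on NRF. Mean Klf13 in WT livers rose from 24.7 CPM at ZT0 to 116.8 CPM at ZT8 on CR, and from 20.1 CPM at ZT0 to 74.5 CPM at ZT12 on NRF. In GRLKO livers its highest mean was 76.2 CPM at ZT8 on CR and 55.8 CPM at ZT12 on NRF. In each genotype the highest mean was thus at ZT8 on CR and at ZT12 on NRF, though in GRLKO on NRF that at ZT8 was close, at 50.2 CPM. Mean Klf15 was highest at ZT12 in all 4 series, at 108 CPM in WT and 71.2 CPM in GRLKO on CR, and at 111 and 78.0 CPM on NRF. In GRLKO livers this was a near tie with ZT8, at 70.8 CPM on CR and 77.5 CPM on NRF; on NRF the median was higher at ZT8 (76.7 CPM) than at ZT12 (74.9 CPM). Mean Klf3 was also highest at ZT12 in WT livers, at 111 CPM on CR and 69.4 CPM on NRF, and in GRLKO livers on CR, at 67.7 CPM; in GRLKO livers on NRF the means at ZT12, ZT16 and ZT20 lay between 52.3 and 52.8 CPM.

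Klf9 had its lowest mean at ZT16 in all 4 series, from 41.6 CPM in GRLKO on CR to 71.3 CPM in WT on NRF. Its highest mean was at ZT12 in WT on CR (160 CPM), at ZT4 in GRLKO on CR (107 CPM), and at ZT8 in WT (148 CPM) and GRLKO (136 CPM) on NRF. Klf10 was highest at ZT8 in all 4 series, with means from 24.0 to 32.0 CPM. Mean Klf6 was highest at ZT4 in all 4 series. It was 17.6 and 16.4 CPM in WT and GRLKO on CR, and 10.1 and 9.85 CPM on NRF. In GRLKO livers the next means were close, at 15.8 CPM at ZT12 on CR and 9.24 CPM at ZT20 on NRF. The latter mean rests on replicate 1, at 16.8 CPM, against 6.18 and 4.73 CPM in replicates 2 and 3. Mean Klf11 in WT livers was highest at ZT12 on CR (18.3 CPM) and at ZT8 on NRF (10.5 CPM).

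Rhythmic genes were found by JTK_CYCLE at 24 h. In WT on CR, 4 KLF genes were rhythmic (Klf3, Klf10, Klf13 and Klf15), where 21.6% of all tested genes were. In GRLKO on CR there were 5 (Klf3, Klf9, Klf10, Klf13 and Klf15; 19.8%), in WT on NRF 5 (Klf3, Klf6, Klf9, Klf13 and Klf15; 26.8%) and in GRLKO on NRF 5 (Klf3, Klf9, Klf11, Klf13 and Klf15; 22.4%). The adjusted p of Klf13 was 0.00954, 0.00448, 1.86e-05 and 0.000818 in the same order. Klf12 entered the test in GRLKO on CR and WT on NRF only, and was not called. In each of these series 1 library was above 0 and the rest were tied at 0, so JTK could not have called it. By limma's cosinor test with all livers, 7 KLF genes were rhythmic in WT on CR (54.4% of all tested genes), 7 in GRLKO on CR (50.6%), 5 in WT on NRF (56.3%) and 6 in GRLKO on NRF (51.2%). JTK was also run without each replicate number. In WT on CR, 1 KLF gene was then rhythmic without replicate 1 (4.05% of all tested genes) and 0 without replicate 2 (2.11%) or 3 (2.11%). In GRLKO on CR there were 2, 1 and 2 without replicates 1, 2 and 3 (2.09%, 1.58% and 2.02%). In WT on NRF there were 4, 2, 3 and 5 without replicates 1, 2, 3 and 4 (17.3%, 13.2%, 12.5% and 19.4%), and in GRLKO on NRF 2, 3, 1 and 5 (7.21%, 6.4%, 7.41% and 19.1%).

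**Figure D3:**
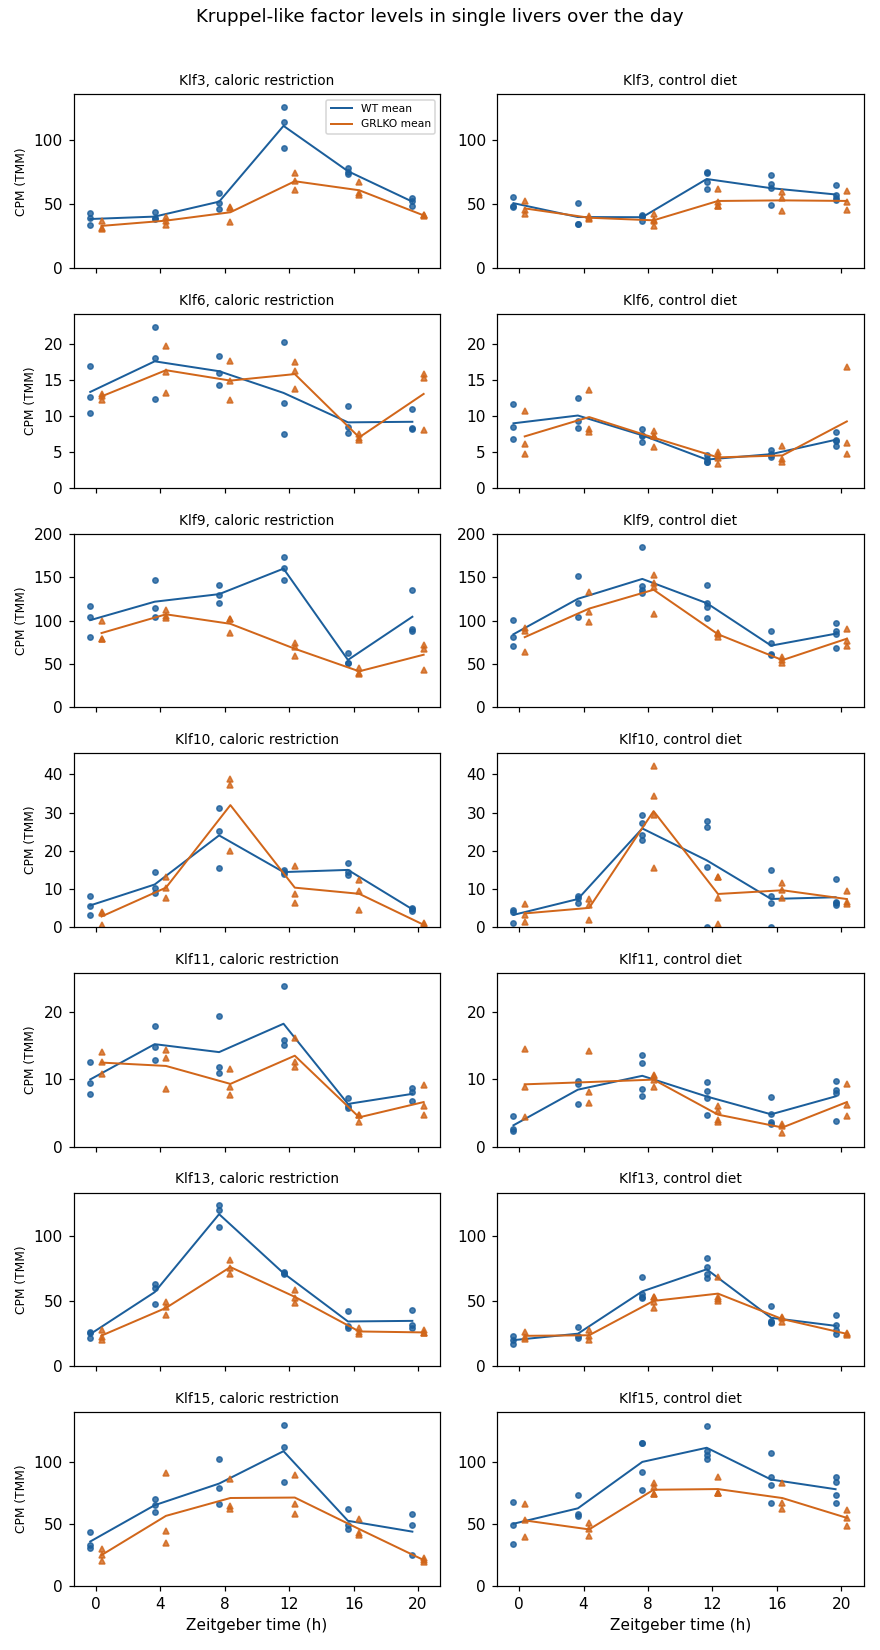
CPM of the KLF genes except Klf12 over ZT in WT and GRLKO livers on CR and NRF; points are livers and lines join the means of each time point. Klf13 reaches its highest mean at ZT8 on CR and at ZT12 on NRF in both genotypes.

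A difference in rhythm was tested itself, by limma on the sine and cosine terms. Between GRLKO and WT, 0 of the 7 KLF genes differed on CR, where 0.667% of all tested genes did, and 0 differed on NRF, where 0.327% did. On each diet 1 KLF gene had an unadjusted p under 0.05, Klf10 on CR and Klf11 on NRF. Over all tested genes, 1603 of 13041 on CR and 1243 of 12834 on NRF had such a p. The same limma test on variance-stabilised values also called 0 KLF genes. Between CR and NRF in WT livers, 3 KLF genes differed (Klf3, Klf6 and Klf13), where 26.7% of all tested genes did. Adjusted p was 0.00239 for Klf3, 0.0113 for Klf6 and 0.00321 for Klf13. The fitted peak of Klf13 was 8.9 h (SE 0.46) on CR and 11.51 h (SE 0.4) on NRF. That of Klf3 was 13.46 h (SE 0.41) on CR and 16.1 h (SE 0.68) on NRF, and that of Klf6 was 5.61 h (SE 0.92) and 2.15 h (SE 0.41). The test takes peak time and amplitude together. The fitted log2 amplitude on CR and on NRF was 0.71 (SE 0.08) and 0.39 (SE 0.07) for Klf3, 0.99 (SE 0.12) and 0.87 (SE 0.09) for Klf13, and 0.51 (SE 0.12) and 0.64 (SE 0.07) for Klf6. Klf15 had adjusted p = 0.0561, with fitted peaks of 9.98 h and 12.18 h. Klf6 was lost without replicate 1 or 3 and Klf13 without replicate 2, each leaving a count of 2. Diet and library set cannot be told apart in this contrast.

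Across the 24 group means of the time series, the profiles of Klf13 and Klf15 had a Pearson r of 0.862, the highest of the 21 pairs of KLF genes. Klf9 and Klf11 followed at 0.808 and Klf10 and Klf15 at 0.77, while Klf3 and Klf6 were lowest at -0.468. These points share diets, genotypes and library sets, so r is a description only. Among 12624 genes, the profile most like that of Klf3 was Gde1 (r = 0.952). For Klf9 it was Tle1 (0.91), for Klf13 Cyth1 (0.932) and for Klf15 Tob2 (0.924). For Klf11 it was Ccdc6 (0.879) and for Klf10 Ubtf (0.787). Among pairs of 2000 genes spread over the table, the median r was -0.002 and 0.598 marked the highest 5%.

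The 9 other genes of the family were counted as a list. Over all tested genes, 47.1% were called with CR in the diet experiment, 8.11% with CORT, 15.3% in GRLKO on CR at ZT12 and 2.08% on NRF, for this list and those that follow. With CR in the diet experiment, 2 of 6 tested rose, Klf5 (log2 1.75, from 0.138 to 0.472 CPM) and Klf16 (0.79), and with CORT 1 of 5, Klf2 (1.58). For both genotype comparisons at ZT12, edgeR called 0 of 5. Of the SP genes, 1 of 5 rose with CR, Sp3 (0.53), and 0 were called with CORT or in either genotype comparison at ZT12. Of 6 genes for partners of KLF repression, 2 rose and 1 fell with CR, led by Ctbp2 (0.98) and the deacetylase gene Hdac1 (-0.55), and 0 were called elsewhere. Genes induced by glucocorticoids rose in 9 of 12 cases with CR and 12 of 12 with CORT. They fell in 10 of 12 cases in GRLKO on CR at ZT12, led by Mt2 (-4.11) and Zbtb16 (-3.62), and in 6 of 12 on NRF. Among clock genes 9 rose and 6 fell of 18 with CR, 3 rose with CORT, 5 rose and 6 fell in GRLKO on CR at ZT12, and 2 of 16 fell on NRF. Per1 belongs to both of these lists. Of the 4 amino acid genes linked to KLF15, 0 were called with CR, and Otc (-0.41) fell with CORT among 3 tested. In GRLKO on CR at ZT12, 2 of 4 fell, Prodh (from a mean of 295 to 148 CPM) and Bcat2. Bcat2 was at 0 counts in all 3 GRLKO livers against a mean of 4.89 CPM in WT livers. A limit of 3 counts over the group gives at least 83.6-fold, which covers counting error only, and Klf10 shows that estimated counts of 0 also occur beside well-counted livers of a group. On NRF edgeR called 0 of the 4.

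Markers of liver cell types were read beside these results, since in bulk RNA fewer cells of a type and less RNA per cell cannot be told apart. Summed hepatocyte markers, of which Alb is the most abundant, were 159700 CPM with CR and 87780 CPM in the controls of the diet experiment, where 4 of 7 rose. Endothelial markers rose there in 4 of 6 cases and cholangiocyte markers in 2 of 4, 2 stellate markers rose and 1 of 6 fell, and 0 of 8 Kupffer and myeloid markers were called. Lymphocyte markers fell in 2 of 4 cases, with a median log2 fold change of -1.47, and 1 adipocyte and 1 erythrocyte marker fell. The summed levels did not overlap between the diets for hepatocyte, endothelial (203.5 CPM with CR against 139.2), stellate (272.5 against 192.9), lymphocyte (1.02 against 3.3) and adipocyte markers (1.95 against 6.41). Adipocyte sums, here and below, rest mostly on Cidec, with a mean of 4.85 CPM. Of the other adipocyte markers, Plin1 was at 0 in 90 libraries, Lep in 89 and Adipoq in 62. The part of these shifts in the rises of the KLF genes was not tested. In GRLKO on CR at ZT12 summed hepatocyte markers were 124500 CPM against 169300 CPM in WT, where 5 of 7 fell, and the groups did not overlap. Kupffer and myeloid markers, led by Clec4f, were 121.9 CPM in GRLKO against 55.4 CPM in WT there, and 3 of 8 rose. Endothelial markers rose in 1 of 6 cases, stellate markers in 0 of 6 and erythrocyte markers in 1 of 3, and of 3 cholangiocyte markers 1 fell. Lymphocyte markers were not tested there and of the adipocyte markers 1 was tested and not called. Sums without overlap were also those of endothelial (211.2 CPM in GRLKO against 164.2), cholangiocyte (31.98 against 28.87) and adipocyte markers (2.59 against 1.5), and of the exocrine pancreas markers given below. The part of these shifts in the falls of Klf3, Klf9 and Klf13 was not tested. In GRLKO on CR at ZT8, where Klf13 fell, summed hepatocyte markers were 108500 CPM against 124900 CPM in WT, without overlap, 1 of 7 hepatocyte markers fell, and 1 adipocyte marker (log2 3.13) and 1 of 3 erythrocyte markers rose. Summed endothelial markers (198 CPM in GRLKO against 158.8) and adipocyte markers (3.62 against 0.428) did not overlap there either. In GRLKO on NRF at ZT12, where Klf9 and Klf15 fell, summed hepatocyte markers were 75650 CPM against 90710 CPM in WT, with overlap between the groups, and 3 of 7 fell; of the other lists 0 markers were called, and only the sums of exocrine pancreas markers did not overlap (0.0199 against 0.507 CPM). The part of these shifts in the falls at ZT8 and on NRF was not tested either. With CORT, 1 of 7 hepatocyte markers and 1 of 8 Kupffer and myeloid markers rose, and 1 endothelial, 1 stellate and 1 cholangiocyte marker fell. Summed endothelial markers (84.94 CPM with CORT against 105.8 with vehicle) and erythrocyte markers (280.3 against 495.8) did not overlap. The part of these shifts in the rises with CORT was not tested.

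Exocrine pancreas markers, with Pnlip the most abundant, stood apart in a pair of libraries. Their sum was 416 CPM in replicate 3 of WT on CR at ZT12 and 187 CPM in replicate 2 of WT on NRF at ZT16, against at most 2.06 CPM in any other library. Without the former, the genotype comparison on CR at ZT12 called 2 KLF genes, Klf3 and Klf9, in place of 3, with Klf13 at adjusted p = 0.0696, and 8.59% of all tested genes in place of 15.3%. Without both, the numbers of rhythmic KLF genes were 4 in WT on CR and 5 in WT on NRF, and 0, 0 and 3 KLF genes had a difference in rhythm, as with all livers. The percentage of all tested genes is not given for these refits, so the counts describe the KLF genes only.

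Promoters are shown for Klf9, Klf13 and Klf15, the genes called in both genotype comparisons at ZT12 or in one of them together with CORT, whose windows overlap no annotated exon. RefSeq promoter entries matched 7 of the 8 genes, and Klf10 had no entry. The windows hold the 250 bases before the start that the RefSeq table uses, in GRCm38.p6, and were searched on both strands for 6 motifs, whose positions count back from the end of the window. For the 3 genes shown, GENCODE gives the same start. The E-box CACGTG occurs in 6.02% of 32851 promoters of this length, the D-box TTATGNAA in 3.07%, the glucocorticoid receptor palindrome in 0.0304%, its shorter site AGAACA, which the palindrome contains, in 16.1%, the CACCC box CCACACCC in 3.2% and the GC box GGGGCGGGG in 10.4%. Capitals mark the matches.
Klf15, chr6:90462326-90462575, plus strand, with E-boxes at -228 and -172 and a GC box at -92: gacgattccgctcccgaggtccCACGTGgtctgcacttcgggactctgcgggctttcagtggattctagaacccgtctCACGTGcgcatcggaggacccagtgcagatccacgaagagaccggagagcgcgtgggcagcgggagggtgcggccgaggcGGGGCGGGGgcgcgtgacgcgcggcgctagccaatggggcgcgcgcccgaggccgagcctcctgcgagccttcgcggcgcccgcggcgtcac
Klf13, chr7:63938916-63939165, minus strand, with a GC box at -133: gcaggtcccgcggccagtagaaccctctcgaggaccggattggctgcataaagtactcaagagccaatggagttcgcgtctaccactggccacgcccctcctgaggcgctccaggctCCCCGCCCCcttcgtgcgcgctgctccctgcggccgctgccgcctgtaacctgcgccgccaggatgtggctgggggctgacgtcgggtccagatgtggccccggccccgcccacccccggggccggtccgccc
Klf9, chr19:23140976-23141225, plus strand, with a match to none of the 6 motifs: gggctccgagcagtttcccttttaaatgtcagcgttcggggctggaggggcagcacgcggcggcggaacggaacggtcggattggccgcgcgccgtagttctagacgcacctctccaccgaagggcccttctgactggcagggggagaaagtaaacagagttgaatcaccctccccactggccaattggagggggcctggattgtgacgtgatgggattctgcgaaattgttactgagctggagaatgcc
In the windows not shown, those of Klf6 and Klf11 also held an E-box, those of Klf3 and Klf11 a GC box and that of Klf12 a CACCC box. A match describes these letters only, and a window without one says nothing about binding elsewhere.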

How the data were processed

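The authors deposited 4 tables of estimated counts per gene, which per the labels and the study's methods came from poly(A) liver RNA, paired-end sequencing and Salmon on mm10 (GRCm38); the transcript annotation is not given in the sources used here. Estimated counts were rounded to whole numbers. edgeR 4.0.16 (TMM, genes past filterByExpr at a minimum count of 10, quasi-likelihood F test, Benjamini-Hochberg adjustment over all genes tested, threshold 0.05) compared groups on their own libraries, in R 4.3.3. DESeq2 1.42.0 was an alternative and gave the variance-stabilised values for JTK_CYCLE, which was programmed anew (period 24 h, 6 phase offsets, exact null distribution, rhythmic at adjusted p under 0.05 and an amplitude of time-point means over 0.1). limma 3.58.1 tested differences in rhythm on log2 CPM with a prior count of 2. The edgeR, DESeq2, limma and JTK tests were tested on simulated data, all but edgeR's comparison of groups and JTK after the first run on the real files; there, DESeq2 called more unchanged genes for the interaction than its threshold allows. No 2 libraries of a group matched within sampling noise: over 102 pairs, chi-square per degree of freedom was at least 10.9. Gene symbols matched 27244 of 27654 identifiers; the 410 others held 0.107% of counts.

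Named genes are the 8 KLF genes and Nr3c1, at most 2 called genes with the largest change from each list, the genes most like each KLF gene, and marker genes; the members and lists were chosen with earlier results of these data known. The gene most like Klf6 is not reported here. Paralogous KLF genes share a zinc-finger domain, and how estimated counts split shared reads was not checked. Protein sequences were not used here. Alternatives were another normalisation, no filter on low counts, DESeq2, a fit over all libraries of a diet, a replicate block, and leaving out each library.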

Additional observations from a re-analysis of the deposited data

Results flagged for a closer look

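In groups of 4 livers, a Dixon test picks out a liver far from the others; about 1 in 20 groups is picked by chance, and here 4 of 42 were. Klf9 was 185.7 CPM in replicate 2 of WT on NRF at ZT8, against 139.8 CPM in the nearest liver. Klf10 was 12.58 CPM in replicate 1 of WT on NRF at ZT20, against 6.609 CPM. Klf13 was 46.15 CPM in replicate 2 of WT on NRF at ZT16, against 35.01 CPM; this is a library with exocrine pancreas markers. Klf15 was 87.55 CPM in replicate 1 of GRLKO on NRF at ZT12, against 75.18 CPM. A group of Klf12 is not in this count, since livers tied at 0 fix the result of the test: Klf12 was 0.9153 CPM in replicate 3 of WT on NRF at ZT20, where the others were at 0.

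Effects that differed between groups by a test of the difference, with edgeR for the interaction and limma for rhythm, were those of 4 genes. DESeq2 also called the interaction of Klf10 at ZT20 (adjusted p = 0.00895), where edgeR did not (adjusted p = 0.55). That was the only call under 17 alternatives, and on simulated data DESeq2 called too many unchanged genes for the interaction. The genotype effect on Klf9 at ZT12 differed between diets by -0.72 on the log2 scale, a call lost in 13 of 14 refits without 1 library and with a replicate block (adjusted p = 0.0774). The rhythm differed between CR and NRF in WT livers for Klf3 (limma adjusted p = 0.00239), Klf6 (0.0113) and Klf13 (0.00321). Klf6 was lost without replicate 1 or 3 and Klf13 without replicate 2, each leaving a count of 2. In both tests the diets are separate library sets, and the 2 cannot be told apart.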

How the results depend on the processing

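Each comparison was recomputed under other settings, and the rhythm results also without the libraries with exocrine pancreas markers, a setting chosen after seeing the data. Of the log2 values, 1651 kept their direction and side of the threshold, 50 no longer passed, 23 newly passed, and 100 changed sign without passing under either setting, in 42 pairs of gene and comparison whose reported values lay between -0.21 and 0.49. Another 3 changed sign and lost their call: with the WT livers of the time series in place of the diet experiment, Klf10 was -0.30, Klf13 -0.083 and Klf15 -0.059, and the count of KLF genes called was 4 (38.1% of all tested genes). Of 318 alternative counts, 269 were within 1.5 times the reported one.

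With DESeq2 the counts, with the percentage of all genes called, were 2 for GRLKO on CR at ZT8 (5.27%), 3 at ZT20 (5.35%), 1 on NRF at ZT0 (3.03%), 4 at ZT12 (4.31%), 1 at ZT20 (2.13%), and 1 for the interaction at ZT20 (0.335%). With a fit over all libraries of the diet they were 3 on CR at ZT20 (8.64%) and 1 on NRF at ZT0 (4.91%); on NRF at ZT12 the count stayed at 2 (4.18%), but Klf15 was lost (adjusted p = 0.0667) and Klf3 gained (0.0362). The cosinor test gave 7 rhythmic KLF genes in WT on CR (54.4%). The cause was not tested.

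With a replicate block the counts were 0 on CR at ZT8 (1.25%), 0 on NRF at ZT12 (0.884%) and 0 for the interaction at ZT12 (0.312%). In GRLKO on CR at ZT12 the count stayed at 3 (7.56%), but Klf13 was lost (adjusted p = 0.071) and Klf15 gained (0.0303); with CR, Klf9 was lost (0.0639). The numbers did not pair the livers: same-numbered livers had correlations from -0.123 to 0.115, in no comparison all over 0.1, and each liver correlated best with its own number only on NRF at ZT16 (3 of 3 pairs). A lost call is therefore not read as a weaker effect.

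Without 1 library, counts ran from 5 to 7 with CR, 2 to 4 with CORT, 0 to 1 in GRLKO on CR at ZT8, 2 to 3 at ZT12, 0 to 1 at ZT20, 0 to 2 on NRF at ZT12, and 0 to 1 for the interaction at ZT12; they were 0 to 0 for the other genotype and interaction comparisons. Without 1 replicate number, rhythmic KLF genes ran from 0 to 1 in WT on CR, 1 to 2 in GRLKO on CR, 2 to 5 in WT on NRF and 1 to 5 in GRLKO on NRF; differences in rhythm ran from 0 to 0 between genotypes and 2 to 3 between diets. Fewer livers enter these fits. The percentage of all tested genes called is not given for each refit, so these counts describe the KLF genes only. Depth limits how low a level of Klf12 can be read.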
